A study of Mus musculus with 4 samples.

Results

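Adrenomedullin, its close relative adrenomedullin 2 and the genes that build their receptors were followed in the pregnant mouse uterus. The genes were chosen by name, as the ligand genes Adm and Adm2, the receptor gene Calcrl and the receptor activity modifying protein genes Ramp1, Ramp2 and Ramp3. They are 6 of the 55421 genes counted in each library. RNA from whole uterus at E18.5 was compared between WT dams of the strain C57BL/6J and Qa-2- dams of the congenic strain B6.Cg-H2b3/FlaCmwJ, also called B6.K1, with 2 mice per group and 1 stranded poly(A) library from each mouse. Qa-2 is a non-classical MHC class I molecule that B6.K1 mice lack. The strain differs from C57BL/6J at least over a segment of the H2 region of chromosome 17, and not in a single gene. WT mice came from Charles River and B6.K1 mice from The Jackson Laboratory, and the control strain B6.K2 of earlier studies was not used. Supplier and any other background difference therefore coincide with the groups and cannot be told apart from the H2 segment. The matings were syngeneic, so the fetuses carried the genotype of their dams. None of the 6 genes lies on chromosome 17. The RNA came from small pieces of uterine tissue, so each library mixed muscle, stroma, epithelium, vessels and blood cells.

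Adrenomedullin is a peptide hormone that widens blood vessels and is made by endothelium, smooth muscle, decidua and other tissues. It acts on a receptor made of 2 proteins, the G protein-coupled receptor encoded by Calcrl and a partner from the Ramp family. The partner sets the ligand, with Ramp1 giving a receptor for calcitonin gene-related peptide and Ramp2 or Ramp3 giving receptors for adrenomedullin, and signalling runs mainly through Gs and cyclic AMP. In mice the system is best known for the growth of blood and lymphatic vessels and for its part in implantation and placentation, and Adm is transcribed more strongly in low oxygen through hypoxia-inducible factors.

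The Adm promoter is shown because Adm had the largest difference of the 6 genes, and because the hypoxia response is 1 of the gene lists described further on. The 250 bases before the RefSeq start of Adm lie at chr7:110627407-110627656 on the plus strand of GRCm38.p6, just upstream of the first exon. They were searched on both strands for ACGTG and GCGTG, the core letters of hypoxia-response elements, and for TATAA, the core of a TATA box. Capitals mark the matches.

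Adm promoter: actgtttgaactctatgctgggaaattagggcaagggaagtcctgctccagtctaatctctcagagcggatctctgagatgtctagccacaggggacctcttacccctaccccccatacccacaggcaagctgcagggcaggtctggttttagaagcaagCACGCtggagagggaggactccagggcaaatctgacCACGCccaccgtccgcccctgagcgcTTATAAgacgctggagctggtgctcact

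In this window GCGTG matched on the minus strand at 90 and at 54 bases before the start, and TATAA matched on both strands in the overlapping letters at 28 and 27 bases before it. ACGTG had no match. Of 32851 RefSeq promoter windows of the same length, 28.2% held GCGTG, 16.6% held ACGTG and 22.8% held TATAA. RefSeq gave a window for 5 of the 6 genes, Ramp2 being the exception, and among the other 4 of these only Ramp3 held any of the searched letters, with GCGTG at 219 bases before its start on the minus strand and at 65 on the plus strand. These matches describe letters and were not tested as binding sites.

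The libraries held 41041299 and 39399991 counted read pairs for WT replicates 1 and 2, and 34922010 and 33286390 for Qa-2- replicates 1 and 2. At this depth 3 counts in a library, the limit that a count of 0 allows, correspond to between 0.0731 and 0.0901 CPM (counts scaled to a common library total), and such limits cover counting error only. The strain labels were checked with H2-Q7, a gene that encodes Qa-2, which had 6318 and 1251 counts in WT and 4 and 2 counts in Qa-2-. The WT libraries themselves differed widely in this gene. All libraries held high levels of uterine genes, among them the progesterone receptor gene Pgr at 175 to 280 CPM and the smooth muscle myosin gene Myh11 at 2312 to 6916 CPM. WT replicate 1 stood apart by the decidual transcript Prl8a2, at 109.5 CPM against 2.05 to 13.3 in the other libraries, and by the perforin transcript Prf1, at 78.4 CPM against 1.33 to 4.56. The other genes of the same lists were mixed there, as Ncr1 (0.225 CPM), Klrb1c (0.449), Bmp2 (5.39), Pgr (175), Pdgfra (172) and Col1a1 (5484) were lowest in that library, while Dcn (3503), Hoxa10 (182) and Hoxa11 (156) were highest. WT replicate 2 alone held reads of the placental genes Psg21, with 308 counts, and Prl3b1, with 155 counts. Qa-2- replicate 1 held 13253 counts of Afp, a yolk sac and fetal liver gene, against 158 to 1268 elsewhere.

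Levels are given as CPM on library sizes scaled by the TMM method, and differences as log2 fold changes (positive where WT was higher) from the quasi-likelihood test of edgeR. Its p-values were adjusted by the Benjamini-Hochberg method over the 14492 genes that reached 1 CPM in at least 2 libraries. Of the 6 genes, 5 passed this filter and Adm2 did not. By edgeR at an adjusted p under 0.05, 0 of the 5 tested genes were called, and 0 of all genes tested (0.0%), with 0.170 as the lowest adjusted p. Without adjustment, 1 of the 5, Adm, and 2199 of all genes (15.2%) had p under 0.05. DESeq2 called 1 of the 5, again Adm, and 700 of all genes (4.83%). Both WT libraries lay above both Qa-2- libraries for 3 of the 5 genes, Adm, Ramp1 and Ramp2, against 25.4% of all genes. The reverse order was seen for 0 of the 5, against 24.5% of all genes. The median log2 fold change was 0.27 over the 5 genes, or 0.15 without WT replicate 1, and 0.012 over all genes tested. With 2 libraries against 2, an exact two-sided permutation test of a single value cannot go below p = 0.33.

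The ligand gene Adm (ENSMUSG00000030790, chromosome 7, 110627661 to 110629820, plus strand) was measured at 50.4 and 24.4 CPM in WT and at 12.6 and 12.3 CPM in Qa-2-, from 2020, 918, 448 and 430 counts. The WT libraries were both higher than the Qa-2- libraries and differed from each other by more than 2-fold, while the Qa-2- libraries were nearly equal. The WT mean was 37.4 ± 18.4 CPM and the Qa-2- mean 12.5 ± 0.233 CPM (SD, n = 2 each), a ratio of 2.996. The log2 fold change was 1.58, with an SE of 0.37 and a 95% interval from 0.65 to 2.52. It did not pass the edgeR test after Benjamini-Hochberg adjustment (adjusted p = 0.254, unadjusted p = 0.00699), and it passed with DESeq2 (adjusted p = 0.00434). Among all genes tested Adm stood at place 399 by p, and 210 genes (1.45%) had a log2 fold change at least as high. WT replicate 1, the library with the most Prl8a2 and Prf1, was also the one with the most Adm. Without it the log2 fold change was 0.94 (adjusted p = 0.177), and without WT replicate 2 it was 2.01 (adjusted p = 0.0365). Prl8a2 and Prf1 were 2 single genes of their lists, and the part of their source in the Adm values was not tested. Adm belonged to a vascular gene list that the study drew from these libraries, so its direction is not independent evidence. An antisense gene, Gm28863, lies over Adm without sharing exon bases, and it had 1 to 11 counts. In bulk tissue, fewer cells of a type and less RNA per cell cannot be told apart, and this holds for every gene described here.

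Adm2 (ENSMUSG00000054136, chromosome 15, 89322720 to 89324731, plus strand) encodes intermedin, a second peptide for the same receptors. It had 15 and 0 counts in WT and 8 and 18 counts in Qa-2-, or 0.374, 0, 0.226 and 0.516 CPM. These values stood near the limit of detection, and the groups overlapped. The 0 in WT replicate 2 allows up to 0.0761 CPM of that library's total.

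**Figure D1:**
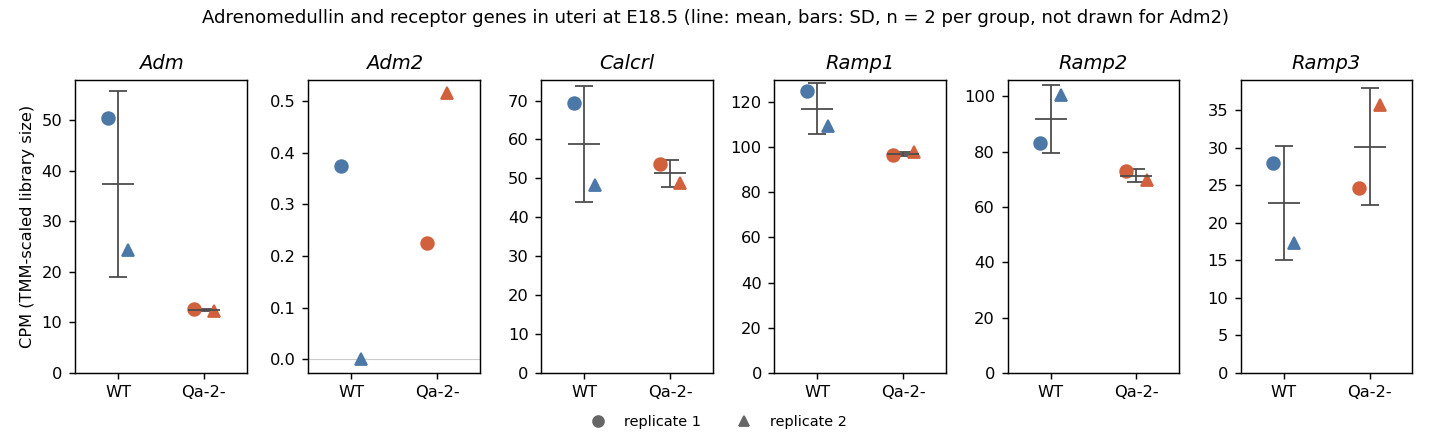
Levels of the 6 genes in each library, in CPM on TMM-scaled library size, with 1 panel per gene, each with its own linear axis. Points are libraries, and lines and bars are group means and SD (n = 2), not drawn for Adm2. Adm separates the groups most, at 50.4 and 24.4 CPM in WT against 12.6 and 12.3 CPM in Qa-2-.

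Calcrl (ENSMUSG00000059588, chromosome 2, 84330626 to 84425411, minus strand), the receptor itself, was measured at 69.5 and 48.3 CPM in WT and at 53.7 and 48.8 CPM in Qa-2-. The groups overlapped, as WT replicate 2 had the lowest level of the 4 and WT replicate 1 the highest. Its log2 fold change was 0.20 (SE 0.22, 95% interval -0.35 to 0.75, edgeR adjusted p = 0.684), and without WT replicate 1 it turned to -0.11. It was 0.109 on library totals alone, 0.128 without Qa-2- replicate 2 and 0.437 without WT replicate 2. The interval reaches past a 1.5-fold difference upward, so equal levels were not shown.

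The 3 Ramp genes did not share 1 direction. Ramp1 (ENSMUSG00000034353, chromosome 1, 91179822 to 91225196, plus strand), the partner in the receptor for calcitonin gene-related peptide, was at 125.0 and 109.2 CPM in WT and at 96.3 and 97.8 CPM in Qa-2-. Both WT libraries were the higher ones, by means of 117.1 ± 11.2 against 97.0 ± 1.002 CPM (SD, n = 2 each). The log2 fold change was 0.27 (SE 0.16, 95% interval -0.14 to 0.68, edgeR adjusted p = 0.466). It was 0.15 without WT replicate 1 and 0.177 on library totals alone.

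Ramp2 (ENSMUSG00000001240, chromosome 11, 101246028 to 101259546, plus strand), the partner that makes the main vascular receptor for adrenomedullin, was at 83.0 and 100.6 CPM in WT and at 73.1 and 69.6 CPM in Qa-2-. Here too the groups did not overlap, and WT replicate 2 was the highest library, unlike for Adm. The means were 91.8 ± 12.4 and 71.4 ± 2.44 CPM (SD, n = 2 each), and the log2 fold change was 0.36 (SE 0.17, 95% interval -0.07 to 0.79, edgeR adjusted p = 0.377). It was 0.22 without WT replicate 2. Exons of Ramp2 share 1103 of their 3301 bases with those of Vps25 on the same strand. Read pairs that could belong to both genes were counted for neither, so the level of Ramp2 is uncertain.

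Ramp3 (ENSMUSG00000041046, chromosome 11, 6658521 to 6677475, plus strand), the partner in the other adrenomedullin receptor, was at 28.0 and 17.3 CPM in WT and at 24.7 and 35.7 CPM in Qa-2-. The groups overlapped, with the lowest library in WT and the highest in Qa-2-. Its log2 fold change of -0.41 was the only one of the 5 below 0 (SE 0.31, 95% interval -1.20 to 0.37, edgeR adjusted p = 0.555). It moved with single libraries, to -0.83 without WT replicate 1, -0.66 without Qa-2- replicate 1, -0.13 without Qa-2- replicate 2 and -0.11 without WT replicate 2.

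To compare levels between genes, CPM was divided by the exon length in kilobases. On this scale Ramp1 was highest in Qa-2- (32.1 ± 0.332, SD, n = 2), then Ramp3 (21.9 ± 5.63) and Ramp2 (21.6 ± 0.739), which did not differ beyond their spread, then Calcrl (10.5 ± 0.707) and Adm (7.71 ± 0.144). In WT the order was Ramp1 (38.8 ± 3.70), Ramp2 (27.8 ± 3.77), Adm (23.1 ± 11.4), Ramp3 (16.4 ± 5.50) and Calcrl (12.1 ± 3.07). In WT the SD bars of Adm reached those of Ramp2, Ramp3 and Calcrl, and those of Ramp3 reached those of Calcrl. Library by library, Adm and Ramp3 were each above Calcrl in both WT libraries, and Adm was below Calcrl in both Qa-2- libraries.

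The place of Ramp2 depended on the length. Its 8 annotated transcripts span more exon bases than its principal transcript of 1178 bases. With the principal transcript of each gene Ramp2 stood above Ramp1 in all 4 libraries, at 77.9 ± 10.6 against 50.4 ± 4.81 CPM per kilobase in WT and at 60.6 ± 2.07 against 41.7 ± 0.431 in Qa-2- (SD, n = 2 each). With the full exon length the order was the opposite in all 4 libraries. With the exon bases that Ramp2 does not share with Vps25, a length added after the values were seen, the order was mixed, at a Ramp2 to Ramp1 ratio of 0.913 and 1.27 in WT and 1.04 and 0.980 in Qa-2-.

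**Figure D2:**
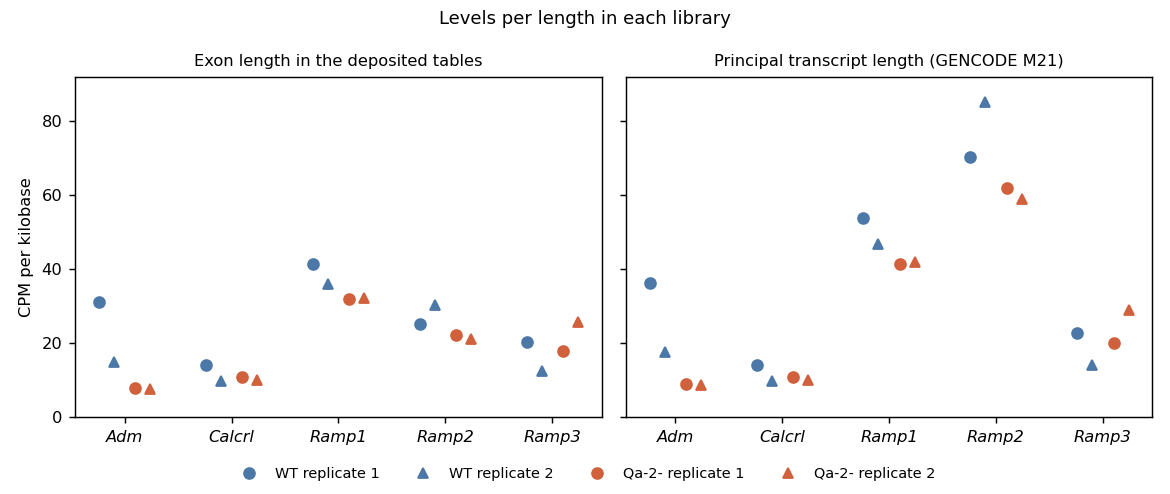
Levels of the 5 genes past the filter per kilobase of exon length and per kilobase of the principal transcript, with 1 point per library on a common axis from 0, coloured by group. Ramp1 is above Ramp2 by exon length and below it by principal transcript, and Adm is above Calcrl in WT only.

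Ratios within a library do not depend on its scaling. The level of Adm per kilobase was 2.19 and 1.52 times that of Calcrl in the WT libraries and 0.710 and 0.761 times in the Qa-2- libraries. The groups did not overlap, and the exact two-sided permutation test gives its smallest possible p of 0.33. The ratio of Ramp3 to Calcrl was 1.43 and 1.26 in WT and 1.63 and 2.58 in Qa-2-, and the ratio of Ramp3 to Ramp2 was 0.807 and 0.411 in WT and 0.808 and 1.23 in Qa-2-. Both Ramp3 ratios were higher in Qa-2-, although in the second the nearest libraries almost touched. The 2 ratios share the Ramp3 values and are not separate observations, and the same permutation test gives 0.33 for each. The ratios of Ramp1 to Calcrl (2.90 to 3.65) and of Ramp2 to Calcrl (1.77 to 3.08) overlapped between the groups. The principal transcript lengths moved the ratio of Ramp2 to Calcrl to 4.95 to 8.63 and that of Ramp3 to Ramp2 to 0.164 to 0.489. A length multiplies a ratio by the same factor in every library, so it cannot change the order of the groups.

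The libraries also differed in vessel genes. Of 12 blood endothelial markers, none of which the study lists, 11 were higher in both WT libraries (25.4% of all genes were), 3 were called by DESeq2 (4.83% of all genes) and 0 by edgeR. Their median log2 fold change was 0.63. Icam2, an endothelial adhesion molecule, had the highest value (1.03) and Erg, an endothelial transcription factor, the next (0.998), while Ptprm (0.30) and Sox17 (-0.03) had the lowest. The summed level of these markers was 811 and 1009 CPM in WT and 601 and 554 CPM in Qa-2-. All 6 lymphatic endothelial markers were higher in both WT libraries, against the same 25.4% of all genes, and 6 were called by DESeq2 and 0 by edgeR. Their median was 1.80, with summed levels of 1240 and 783 CPM in WT against 358 and 204 CPM in Qa-2-. Reln (2.21) and Mmrn1 (2.10) were highest in this list and Flt4 (1.72) and Pdpn (1.30) lowest. Prox1, Flt4 and Pdpn are also in lists that the study drew from these libraries and are not independent evidence.

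The genes were therefore also set against these markers in the same library, a scaling that moves every gene alike and was chosen after the values were seen. Per 1000 CPM of blood endothelial markers, Adm was at 62.2 and 24.2 CPM in WT and at 21.03 and 22.2 CPM in Qa-2-. The WT libraries stayed above, but WT replicate 2 only narrowly. On this scale 1 of the 5 tested genes, Adm, was higher in both WT libraries, against 3.01% of all genes. The other 4 were higher in both Qa-2- libraries, against 72.5% of all genes. The blood endothelial markers left out vascular genes that the study lists, among them the VE-cadherin gene Cdh5. Cdh5 followed Adm closely, at 445 and 239 CPM in WT and at 116 and 105 CPM in Qa-2-. The separation of Adm therefore depends on which markers are summed, and scaling by Cdh5 was not run. Per 1000 CPM of lymphatic markers, Adm was at 40.7 and 31.2 CPM in WT and at 35.3 and 60.4 CPM in Qa-2-, and the groups overlapped. On the lymphatic scale the other 4 had both Qa-2- libraries above both WT libraries, as had 96.3% of all genes, and 0 of the 5 were higher in both WT libraries, against 0.235% of all genes. Counts near such shares describe the scaling and not the receptor genes. Which cells held the RNA was not measured.

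Markers of other cell types also differed between the groups in part, and their counts stand against 25.4% of all genes with both WT libraries higher, 24.5% with both Qa-2- libraries higher and 4.83% called by DESeq2. Of 8 smooth muscle genes 6 were higher in both WT libraries and 2 were called by DESeq2, both higher in WT, with a median of 0.99, from Des (1.22) and Actg2 (1.16) down to Smtn (0.57) and Myh11 (0.56). Without WT replicate 2 that median was 0.58, and without Qa-2- replicate 2 it was 0.61. Of the 8 uterine epithelial genes past the filter 6 had both Qa-2- libraries above both WT libraries and 2 were called by DESeq2, both higher in Qa-2-. Their median was -0.83, or -1.34 without WT replicate 1 and -0.46 without WT replicate 2, and they ran from Elf3 (-1.45) and Foxa2 (-1.18) to Cldn7 (-0.71) and Krt18 (-0.62). Foxa2 passed the filter only through the Qa-2- libraries and so had to be higher there. Of 6 macrophage genes 4 were higher in both WT libraries and 2, Lyz2 and Cd68, were called by DESeq2, both higher in WT. Their median was 0.72, or 0.40 without WT replicate 2, from C1qc (0.98) and Lyz2 (0.95) down to Mrc1 (0.33) and Csf1r (0.20). Of 9 stroma and decidua genes 3 were higher in both WT libraries, 1 in both Qa-2- libraries and 1, Dcn, was called by DESeq2, with a median of 0.33, from Prl8a2 (2.696) and Dcn (0.98) down to Col1a1 (-0.19) and Pdgfra (-0.59). Both tested erythroid genes, Hbb-bs (2.58) and Hba-a2 (2.28), were higher in both WT libraries and called by DESeq2, with a median of 2.43. The medians of 3 other lists turned sign with the library left out. That of the 3 tested NK cell genes was 0.39, from Prf1 (3.78) to Gzma (0.07), and ran from -0.13 without Qa-2- replicate 1 to 3.06 without Qa-2- replicate 2. That of the 3 tested trophoblast and yolk sac genes was -2.50, from Tpbpa (1.10) to Afp (-3.39), and ran from -4.73 without WT replicate 2 to 0.08 without Qa-2- replicate 1. That of the 7 immediate early and heat shock genes was 0.28, from Dusp1 (0.80) and Egr1 (0.62) to Hspa1a, near 0, and Atf3 (-0.39), and was -0.33 without WT replicate 2 and -0.11 without Qa-2- replicate 2. In these 3 lists 0 genes were called by DESeq2, and the groups overlapped for every tested gene other than Atf3, which was higher in both Qa-2- libraries. Of the NK cell genes that did not pass the filter, Klrb1c overlapped. Ncr1 stood in the opposite order to the NK cell median, with 9 and 13 counts in WT and 23 and 32 counts in Qa-2-. The edgeR test called 0 genes in each of these lists. The part of these cell types in the values of Adm and its receptor genes was not tested.

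The other genes of the pathway, 48 in 4 lists, included 41 past the filter. Of these, 0 were called by edgeR and 4 by DESeq2 (4.83% of all genes), of which Cpe and Gpr182 were higher in WT and Adcy1 and Casr in Qa-2-. In 12 of the 41 both WT libraries were higher, in 11 both Qa-2- libraries were higher, and the median log2 fold change was 0.18. Both counts were close to the shares of all genes, 25.4% and 24.5%. The median was 0.31 without WT replicate 1 and -0.04 without WT replicate 2.

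Among the ligands and receptors of the calcitonin family, Calca, which encodes calcitonin and calcitonin gene-related peptide, was at 1.72 and 2.02 CPM in WT and at 2.91 and 4.81 CPM in Qa-2-. Both Qa-2- libraries were higher, with a log2 fold change of -1.04 (SE 0.39, edgeR adjusted p = 0.317), the opposite sign to Adm. Crcp, an accessory protein of the receptor for calcitonin gene-related peptide, was at 25.1 and 25.8 CPM in WT and at 15.6 and 18.1 CPM in Qa-2- (log2 fold change 0.59, edgeR adjusted p = 0.275). Calcb did not pass the filter, with 6 to 18 counts per library. Iapp and the calcitonin receptor gene Calcr had 0 counts in all 4 libraries, which allows up to 0.0901 CPM in the shallowest, so a Calcr-based receptor for the Ramp proteins was not detectable at this depth.

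The genes of peptide processing and clearance were divided. Cpe, a carboxypeptidase that trims peptide precursors, was at 398 and 164 CPM in WT and at 122 and 88.6 CPM in Qa-2-, with WT replicate 1 highest as for Adm. Its log2 fold change was 1.42 (edgeR adjusted p = 0.293, DESeq2 adjusted p = 0.0316). Pam, which amidates adrenomedullin into its active form, was at 208 and 272 CPM in WT and at 187 and 136 CPM in Qa-2- (log2 fold change 0.57, edgeR adjusted p = 0.362). Mme, the peptide-degrading enzyme neprilysin, was at 49.4 and 58.2 CPM in WT and at 86.3 and 72.1 CPM in Qa-2- (log2 fold change -0.56, edgeR adjusted p = 0.286). The precursor convertase genes Furin (-0.51) and Pcsk6 (-0.59) were above both WT libraries in both Qa-2- libraries. The values of Pcsk5 (0.18) overlapped.

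Gpr182, an endothelial receptor once proposed to bind adrenomedullin and now known as a chemokine scavenger, had 468 and 474 counts in WT and 183 and 130 counts in Qa-2-. The WT libraries were alike, at 11.7 and 12.6 CPM, and both were above the Qa-2- libraries, at 5.17 and 3.72 CPM. The means were 12.1 ± 0.643 and 4.45 ± 1.02 CPM (SD, n = 2 each). The log2 fold change was 1.45 (SE 0.27, edgeR adjusted p = 0.246, DESeq2 adjusted p = 0.00118). Ackr3, a scavenger receptor for chemokines and adrenomedullin, was at 139.5 and 151.7 CPM in WT and at 142.2 and 105.6 CPM in Qa-2-, and overlapped (log2 fold change 0.23, edgeR adjusted p = 0.625).

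**Figure D3:**
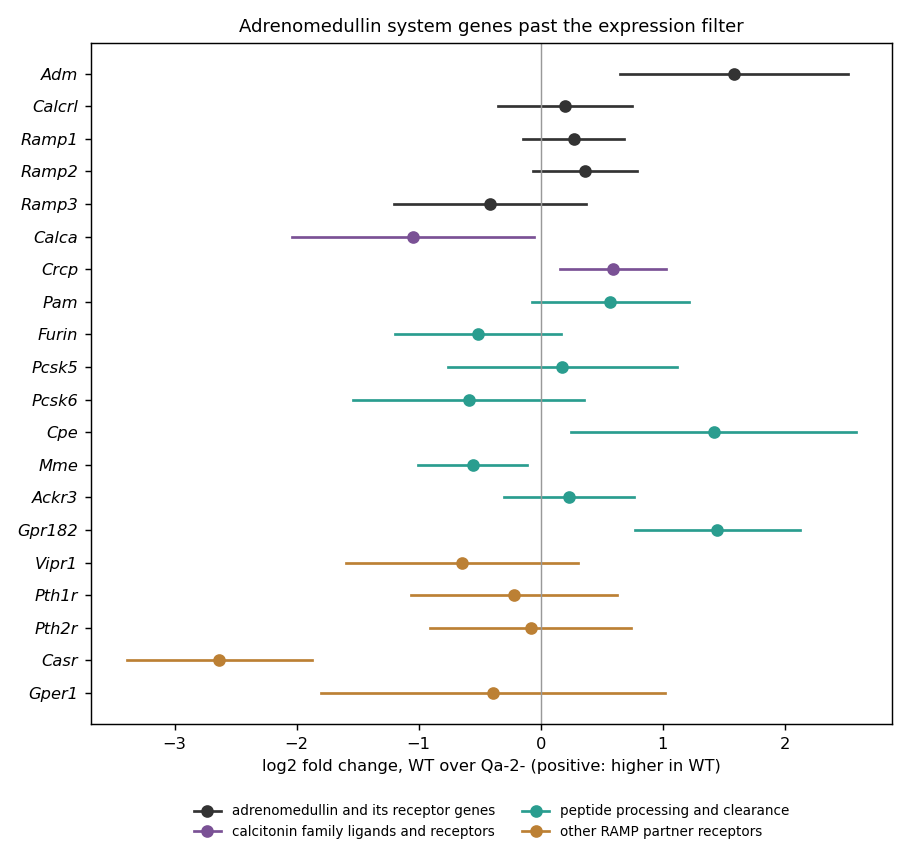
Log2 fold change from edgeR, positive where WT was higher, for the 5 genes past the filter and 15 other genes of the system, with 95% intervals as horizontal lines and colours for the gene lists. Adm (1.58), Gpr182 (1.45) and Cpe (1.42) lie farthest to the WT side and Casr (-2.63) farthest to the Qa-2- side. By edgeR 0 of the genes shown passed after adjustment, while DESeq2 called Adm, Gpr182, Cpe and Casr.

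Of the other receptors known to bind Ramp proteins, 5 of 9 passed the filter. All 5 log2 fold changes were below 0, where the median of all genes tested was 0.012. The calcium-sensing receptor gene Casr had 90 and 65 counts in WT and 382 and 485 counts in Qa-2-, or 2.25 and 1.73 CPM against 10.8 and 13.9 CPM. Its groups were far apart compared with their spread, with a log2 fold change of -2.63 (SE 0.30, edgeR adjusted p = 0.228, DESeq2 adjusted p = 1.97e-10). Vipr1 (-0.65) was also higher in both Qa-2- libraries, whereas Pth1r (-0.22), Pth2r (-0.08) and Gper1 (-0.39) overlapped. Vipr2, Gcgr and Sctr did not pass the filter. Sctr, with 17 and 55 counts in WT and 7 and 4 counts in Qa-2-, stood in the opposite order to the 5 tested genes. Crhr1 had 0 counts in all 4 libraries.

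Downstream of the receptor, all 26 genes of Gs, cyclic AMP and arrestin signalling were tested. In 8 of them both WT libraries were higher and in 5 both Qa-2- libraries, near the 25.4% and 24.5% of all genes. The median was 0.20 and ran from -0.04 without WT replicate 2 to 0.40 without WT replicate 1. The adenylyl cyclase genes lay at both ends. Adcy1 was at 1.10 and 1.81 CPM in WT and at 5.82 and 8.80 CPM in Qa-2- (log2 fold change -2.33, edgeR adjusted p = 0.246, DESeq2 adjusted p = 8.18e-05). Adcy8 (1.39) and Adcy4 (0.74) had the highest values, and Rapgef4, a cyclic AMP sensor, the lowest after Adcy1 (-0.60). Gnas, which encodes the Gs alpha subunit, was abundant in all libraries, at 1163 and 1397 CPM in WT and at 1070 and 824 CPM in Qa-2-.

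The hypoxia response list, without Adm, held 16 genes, all tested. In 10 of them both WT libraries were higher and in 2 both Qa-2- libraries, against 25.4% and 24.5% of all genes. The median was 0.37, with a range from 0.21 without WT replicate 1 to 0.45 without WT replicate 2. The edgeR test called 0 and DESeq2 called 1 (4.83% of all genes), Vegfa, in the direction opposite to Adm. Vegfa, the endothelial growth factor gene, was at 46.8 and 47.9 CPM in WT and at 88.9 and 76.9 CPM in Qa-2- (log2 fold change -0.81, edgeR adjusted p = 0.246, DESeq2 adjusted p = 0.0120). The WT libraries were nearly equal and both below the Qa-2- libraries. Ankrd37 (1.64) and Bnip3 (1.19) had the highest values of the list, and Car9 (-1.17) the lowest, followed by Vegfa. Car9, at 0.499 to 1.40 CPM, passed the filter only through the Qa-2- libraries and so had to be higher there. Bnip3, whose protein acts at mitochondria, was at 94.9 and 37.1 CPM in WT and at 28.9 and 29.1 CPM in Qa-2-, with WT replicate 1 far above the others as for Adm. Of the genes of the factors themselves, Hif1a was at 181 to 214 CPM and overlapped. On library totals alone Hif1a was higher in both Qa-2- libraries, at 217 and 196 CPM against 177 and 189 CPM in WT. Epas1 was at 252 and 232 CPM in WT against 169 and 161 CPM in Qa-2- (log2 fold change 0.55, edgeR adjusted p = 0.293).

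**Figure D4:**
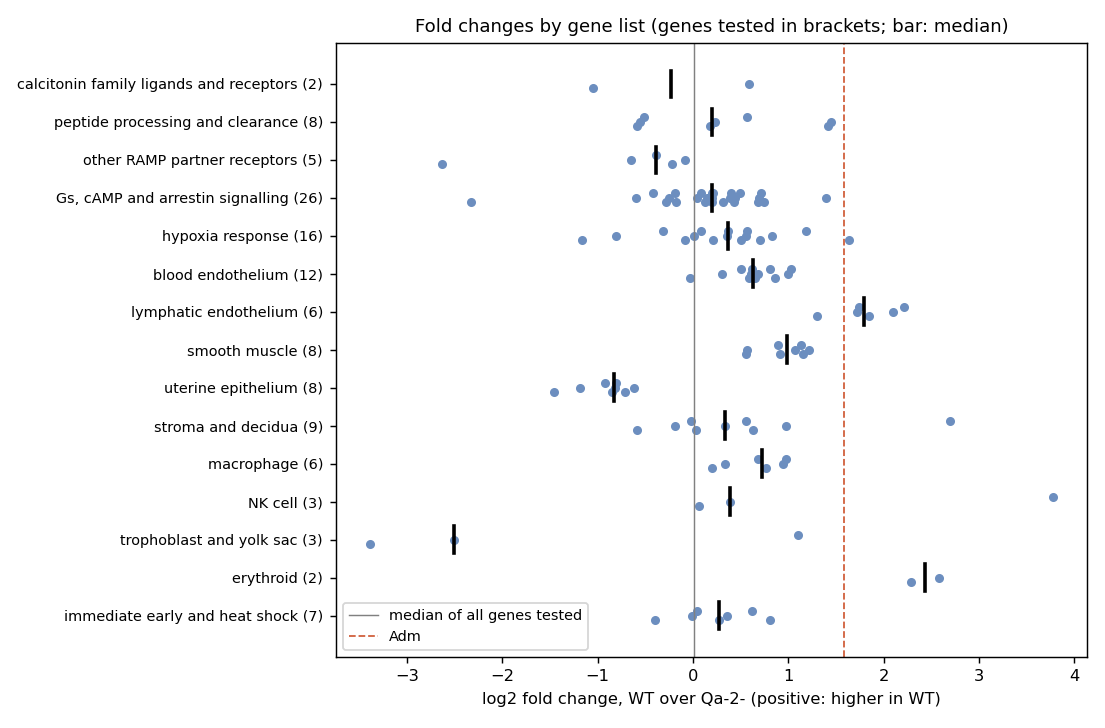
Log2 fold change of each tested gene of the pathway, hypoxia and cell type lists, 1 row per list with its number of tested genes in brackets, with the median of each list as a bar, the median of all genes tested (0.012) as a grey line and Adm (1.58) as a dashed line. The 6 lymphatic markers lie at 1.30 to 2.21, and the hypoxia list spans -1.17 to 1.64.

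The genes whose pattern over the 4 libraries was most like that of each of the 5 tested genes were also found, by the Euclidean distance of centred log2 CPM among 14481 named genes past the filter. For Adm they were Lpl, encoding lipoprotein lipase, Cdh5, encoding VE-cadherin of endothelial junctions, and Serpine2, a protease inhibitor gene, at distances of 0.141, 0.149 and 0.168. Cdh5 was at 445 and 239 CPM in WT and at 116 and 105 CPM in Qa-2-, the same order of libraries as Adm. Cdh5 too belonged to the vascular list of the study. Calcrl was nearest to Atp6ap2, Lefty1 and Slc8b1 (distances of 0.0318 to 0.0481), Ramp1 to Vamp3, Adh5 and Ubl7, Ramp2 to Stx4a, Zfp820 and Lrrc73, and Ramp3 to Ntn1, Prr16 and Ociad2. Over 4 libraries, many genes share a pattern.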

How the data were processed

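RNA from whole E18.5 uterus of 4 mice, 2 WT and 2 Qa-2-, was sequenced, and groups and replicate numbers were taken from the labels. The deposited values are raw counts of read pairs per gene, made by the authors with STAR 2.7.3a and featureCounts 2.0.0 against GRCm38.p6, per the submitters' processing notes and the file headers. Pairs were counted on the reverse strand over exons, with both ends mapped, and pairs that matched several places or genes were not counted, which lowers genes with shared exons. The annotation release is not given in the sources used here. Of 55421 identifiers, 55240 were found in GENCODE M21, 54985 with the same start and end, and 55154 were given a symbol.

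Genes that reached 1 CPM (counts per 1000000) in 2 or more libraries, a filter taken from the study's methods, which give a larger number of genes kept than it gave here, were tested with edgeR 4.0.16 in R 4.3.3 (TMM, quasi-likelihood test, Benjamini-Hochberg adjustment, threshold 0.05). The SE was the log2 fold change divided by the square root of F. DESeq2 1.42.0, upper-quartile and library-total scaling, other filters, a robust fit, a replicate block and leaving out each library were alternatives. The procedure was run on simulated data as a check of the code, and its power on these libraries is not reported. Same-numbered mice are different animals, and deviations of same-numbered libraries from their group means correlated at -0.37, so the numbers were not used as pairs. Replicates differed beyond sampling noise (chi-square per gene of 188 in WT and 118 in Qa-2-).

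All 6 genes were described, with every gene of the calcitonin family, peptide processing and Ramp partner lists except 1 of the peptide processing list, which is not reported here and enters no count. For the other lists counts, medians and the 2 highest and 2 lowest genes were given (fewer where 3 or fewer were tested), with the 3 nearest genes of each receptor or ligand gene. Prl8a2, Prf1, Psg21, Prl3b1, Afp, Gnas, Hif1a, Epas1, Cd68, Ncr1, Klrb1c, Bmp2, Pgr, Hoxa10 and Hoxa11 were named after their values were seen. The genes and lists were chosen with earlier results of these data known. Scaling by the coding length of RefSeq proteins was not run.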

Additional observations from a re-analysis of the deposited data

How the results depend on the processing

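The number of genes called rested on the method. It was 0 with edgeR, 700 with DESeq2 (404 higher in WT), 61 without a filter (47 higher in WT) and 2 with the replicate block, and 0 to 45 as each library was left out, 45 being the value without WT replicate 2. The numbers do not pair the mice, and a crossed pairing, added after seeing the data, gave 0 calls. Of the adrenomedullin and receptor genes, 1 was called by DESeq2 and 0 to 1 as each library was left out, in each case Adm. Of the other pathway genes, 4 were called by DESeq2 and 1, Casr, without a filter. The log2 fold change of Adm was 1.58 with DESeq2, past the threshold, and 0.94 to 2.01 as each library was left out, lowest without WT replicate 1 and highest, with an adjusted p under the threshold, without WT replicate 2. That of Calcrl ran from -0.11, reversed without WT replicate 1, to 0.44. The cause was not tested. When 1 library was left out, the lone library of its group was assumed to vary like the other group. As each library was left out, Ramp1 ran from 0.15 to 0.36, Ramp2 from 0.22 to 0.47 and Ramp3 from -0.83 to -0.11. The ratios to Calcrl and between Ramp genes moved with the length in 15 recomputed values, with Ramp2 to Calcrl in WT at 2.42 by exon length, 3.64 without shared bases and 6.79 by principal transcript. The other 85 recomputed gene counts and fold changes of Adm, Calcrl and the Ramp genes kept their direction and side of the threshold, the counts within 1.5 times. The 5 tested genes had 430 counts or more in every library, and depth limited Adm2, with 0 to 18 counts.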

Other observations

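The gene that overlaps Ramp2, Vps25, encodes a subunit of a sorting complex for membrane proteins that most cells need. It had only 31 and 12 counts in WT and 23 and 12 in Qa-2-, although Ramp2 had 2431 to 3787. Of its 1642 exon bases, 1103 are shared with Ramp2, and pairs there were counted for neither gene.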
